A study of Mus musculus with 141 samples.

Results

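This section describes DNA methylation at 10 mouse genes of inhibitory adrenergic signalling to cyclic AMP: 7 adenylate cyclases (Adcy1, Adcy2, Adcy3, Adcy5, Adcy6, Adcy8 and Adcy9), the receptors Adra2a and Adra2c, and the G protein subunit Gnai1. They are 10 of the 21627 protein-coding genes on chromosomes 1 to 19 and X in the annotation used. The genes were named in a list that was chosen on methylation values measured in these same cells, and each was followed over all CpGs inside it and within 1 kb of either end. Levels and differences are therefore descriptions, given without a test. The cells were IdhR132H mouse glioma cells, a cell line carrying mutant isocitrate dehydrogenase, kept for more than 2 weeks either with 1 µM AG-881 (vorasidenib, an inhibitor of the mutant enzyme) or with the vehicle DMSO. Both arms share the mutation, so DMSO cells are mutant cells without inhibitor, and no cells with wild-type IDH enter the comparison. The mutant enzyme makes 2-hydroxyglutarate, which inhibits the TET enzymes that start the removal of DNA methylation, and the comparison asks where methylation differs once that enzyme is inhibited. Live cells were sorted singly and profiled by reduced representation bisulfite sequencing, in which the enzyme MspI (cutting at CCGG) enriches CpG-dense DNA.

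Adenylate cyclases make cyclic AMP from ATP at the cell membrane. Stimulatory G proteins, downstream of beta-adrenergic receptors, switch them on. Receptors of the alpha-2 class, encoded by Adra2a, Adra2b and Adra2c, act through inhibitory G proteins such as the one containing the Gnai1 product and hold the cyclases back. Cyclic AMP then activates protein kinase A and the exchange factor encoded by Rapgef3, and phosphodiesterases break it down. Noradrenaline acting on such receptors is one of the signals glial cells of the brain respond to.

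Calls came from 67 cells treated with AG-881 and 74 treated with DMSO, each arm in 4 library pools (pools 1 to 4 with AG-881, pools 5 to 8 with DMSO). A call is the state of 1 CpG in 1 cell, and a level is the percentage of calls that were methylated. No label tells cultures of the same arm from each other, and each arm was taken as 1 culture; cells and pools are no replicates of the treatment, and pool and arm cannot be told apart. Cells had calls at a median of 89485 CpGs with AG-881 (range 23915 to 190342) and 67780 with DMSO (range 10440 to 165902). Levels were taken at shared CpGs, those that 5 or more AG-881 cells and as many DMSO cells had a call for, where 25.4% of all calls were methylated with AG-881 and 26.8% with DMSO. Pool 3 had the highest level of the AG-881 pools over these CpGs, 28.4%, against 23.6% to 25.01% in pools 1, 2 and 4 and 25.8% to 27.6% in the DMSO pools. The 24 barcodes in the column names each occurred in more than 1 pool, and no 2 of the 141 columns covered the same set of positions. The table holds no expression, so the labelled cell type could be looked at only through methylation near the starts of 20 marker genes. Of these, 4 were measured: the start of Sox2, a neural progenitor factor, was at 0.375% with AG-881 and 0% of 224 calls with DMSO, while Sox10 (42.7% and 57.8%), the endothelial Kdr (31.4% and 36.6%) and the neuronal Snap25 (26.9% and 25.2%) were partly methylated. None of the 5 immune and 2 fibroblast markers was measured.

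The sequence before the starts is given with the shared CpGs marked. Promoters were taken from RefSeq (GRCm38.p6, the sequence of mm10), which lists a start for 8 of the 10 genes; for Adcy6 and Adcy8 the end of the gene with more CpGs was used instead. The 250 bases before the start follow for 4 genes whose annotated boundary coincides with that start, with the shared CpGs in capitals. In Adcy1 the final capital C belongs to a CpG that straddles the start.
Adra2a, chr19:54045009-54045258, plus strand: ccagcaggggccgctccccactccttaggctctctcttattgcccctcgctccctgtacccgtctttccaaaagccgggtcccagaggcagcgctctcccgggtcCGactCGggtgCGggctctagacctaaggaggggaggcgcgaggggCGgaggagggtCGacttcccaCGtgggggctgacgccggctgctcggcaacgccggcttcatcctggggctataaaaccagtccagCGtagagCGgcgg
Adra2c, chr5:35278316-35278565, plus strand: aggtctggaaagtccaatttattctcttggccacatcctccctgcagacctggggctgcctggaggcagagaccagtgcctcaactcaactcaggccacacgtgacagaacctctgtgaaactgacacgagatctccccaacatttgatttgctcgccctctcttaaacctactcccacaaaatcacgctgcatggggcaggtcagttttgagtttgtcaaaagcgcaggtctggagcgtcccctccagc
Gnai1, chr5:18360414-18360663, minus strand: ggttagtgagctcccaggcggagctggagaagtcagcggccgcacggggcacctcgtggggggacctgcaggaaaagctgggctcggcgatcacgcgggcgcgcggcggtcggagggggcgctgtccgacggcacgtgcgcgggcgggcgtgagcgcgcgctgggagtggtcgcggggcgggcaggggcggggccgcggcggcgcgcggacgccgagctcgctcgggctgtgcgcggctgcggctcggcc
Adcy1, chr11:7063183-7063432, plus strand: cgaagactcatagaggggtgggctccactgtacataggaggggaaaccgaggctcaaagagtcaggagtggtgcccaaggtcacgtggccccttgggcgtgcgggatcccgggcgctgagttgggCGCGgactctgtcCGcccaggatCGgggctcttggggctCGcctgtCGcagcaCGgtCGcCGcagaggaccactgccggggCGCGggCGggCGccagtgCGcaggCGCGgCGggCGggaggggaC
The 300 bases around the start (250 before, 50 after) held 28 CG dinucleotides in Adra2a, 7 in Adra2c, 53 in Gnai1 and 37 in Adcy1, against a median of 7 over 32619 RefSeq promoters; 99.5% of promoters had fewer than Gnai1. CCGG occurred 5 times in the Adra2a window and 3 times in that of Adcy1, and 0 times in Adra2c and Gnai1, while 53.1% of all promoters held at least 1. Adcy2, Adcy3 and Adcy9 held CCGG 4 times each around the start used. Among the deposited positions were 19, 22 and 18 CpGs of these 300 bases. In the 250 bases before that start Adcy3 had 11 shared CpGs and Adcy2 and Adcy9 had 0. The requirement of 5 cells of each arm thus left no upstream CpG in these 2 genes. No shared CpG lay upstream of the start in Adra2c or Gnai1 either. The start values of Adra2c and Gnai1 below come from 440 to 966 bp and from 98 to 382 bp downstream. The full cyclic AMP response element TGACGTCA, a palindrome, was not found in any of the 9 listed promoter windows of the members, and 1.80% of all promoters held it. The partial element TGACG, which is contained in the full element and was searched on both strands, occurred once each in Adra2a and Adcy9, and in 20.9% of all promoters.

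Within 1 kb of the start, 7 of the 10 members were less methylated with AG-881 and 3 more, beside 50.7% of all 9360 measured starts that were lower. Over the 10 members together 17.9% of 2766 calls were methylated with AG-881 and 23.3% of 2535 with DMSO, a difference of -5.38 percentage points (95% interval -7.59 to -3.18). Intervals here are Clopper-Pearson intervals over calls; they cover counting error only and treat calls of 1 cell as independent, which makes them too narrow. Without AG-881 pool 4, where the members stood at 13.1% against 18.2% to 22.3% in pools 1 to 3, the difference was -3.05 points. That pool was not low over all starts, with 4.31% against 3.90% to 5.203% in pools 1 to 3. Adcy3 and Adra2a were lower by 10 points or more and no member was higher by as much; over all starts these shares were 3.32% and 0.887%. The interval of the difference lay below 0 in 4 members (Adra2a, Adcy1, Adcy3, Adcy5) and above 0 in Gnai1, against 5.84% and 1.09% of all starts. Of the 9 members with at least 20 calls in every pool, all AG-881 pools lay below all DMSO pools in 1, Adra2a, and above in none, against 1.32% and 0.161% of 5585 starts.

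**Figure D1:**
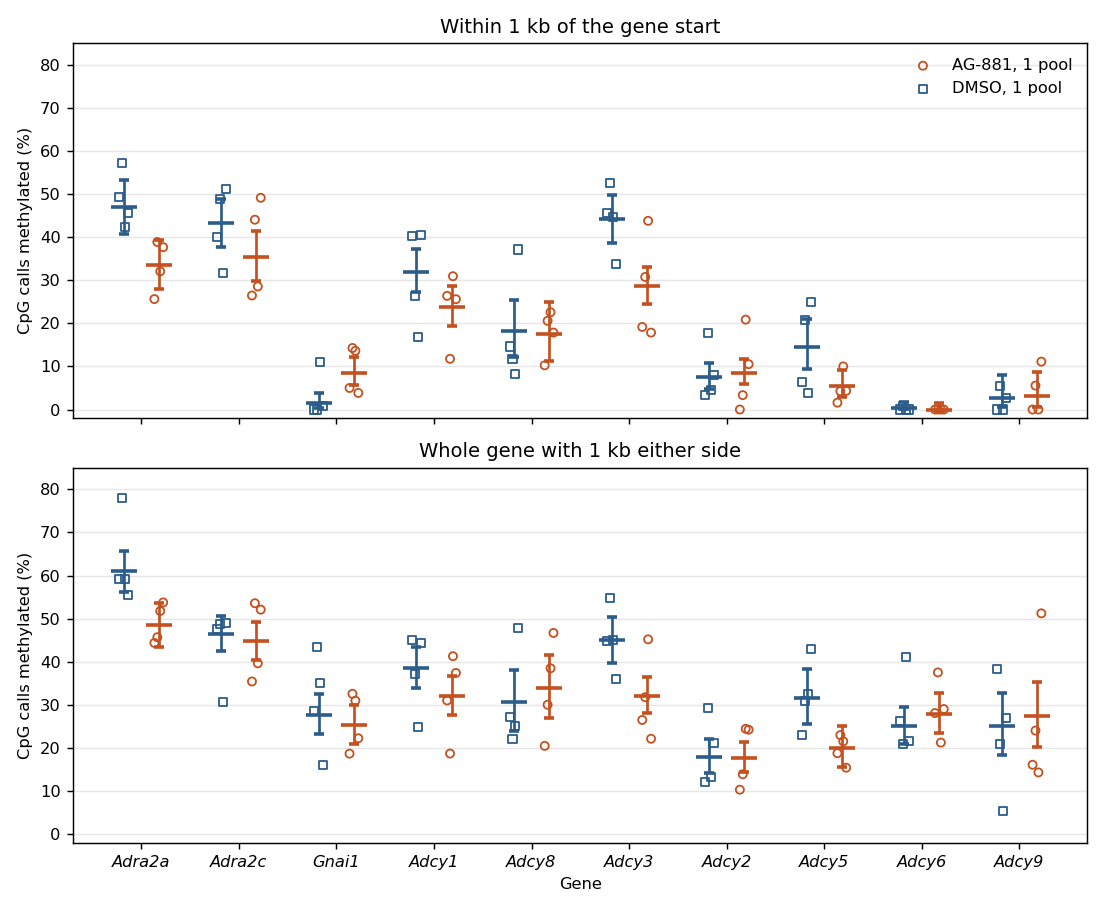
Percentage of CpG calls methylated for each gene within 1 kb of the start (top) and over the whole gene with 1 kb either side (bottom). Open symbols are single library pools, bars the level of the arm with its 95% Clopper-Pearson interval; the AG-881 and DMSO pools of Adra2a do not overlap in either panel, and all pools of Adcy6 lie under 1% at the start.

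The members differ from the typical gene in their level before any treatment difference. Their median DMSO level at the start was 16.4%, against 0.834% over all starts. Among the 916 starts with a mean level of 20% to 60%, 70.9% were lower with AG-881, 22.5% by 10 points or more and 5.24% higher by as much, with a median difference of -4.29 points. Adra2a, Adra2c, Adcy1 and Adcy3 fall in that range, and their differences were -13.6, -7.79, -8.20 and -15.4 points. All 4 were lower, and 2 of them passed 10 points. Of the starts in that range 329 had 20 calls in every pool. All AG-881 pools lay below all DMSO pools in 3.34% of these, as they did in Adra2a. In order of DMSO level the starts ran Adra2a (47.04%), Adcy3 (44.1%), Adra2c (43.3%), Adcy1 (32.01%), Adcy8 (18.2%), Adcy5 (14.6%), Adcy2 (7.45%), Adcy9 (2.78%), Gnai1 (1.51%) and Adcy6 (0.337%). Intervals of neighbours in this order overlapped, except between Adra2c and Adcy1 and between Adcy1 and Adcy8. Adcy9 had calls in only 9 AG-881 cells, 1 short of the minimum of 10, and is not counted among measured starts.

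**Figure D2:**
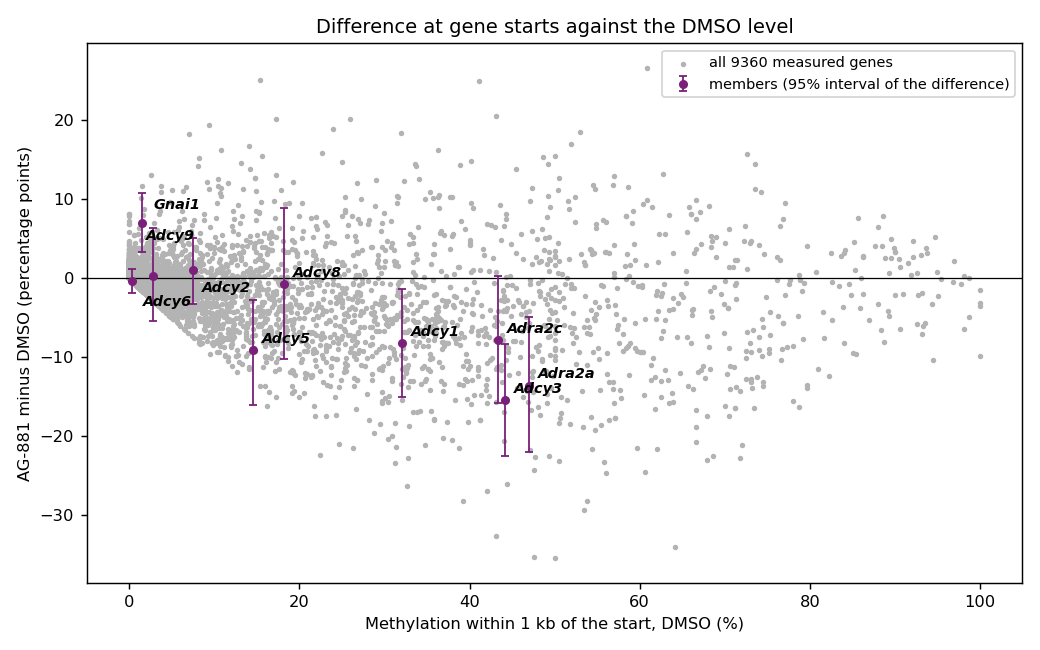
Difference between arms within 1 kb of the start (AG-881 minus DMSO, percentage points) against the DMSO level, for 9360 measured genes (grey) and the 10 members (purple, with the 95% interval of the difference). Adra2a and Adcy3 lie at -13.6 and -15.4 points, and Gnai1 at 6.96 points and a DMSO level of 1.51%.

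Over the whole gene with its flanks all members were measured, and 7 were lower with AG-881 and 3 higher, beside 55.1% of 11664 genes that were lower. The 7 are not those of the start: Adcy6 and Adcy8 were lower at the start and higher over the whole gene (2.91 and 3.25 points), and Adcy2 and Gnai1 were higher at the start and lower over the whole gene (-0.104 and -2.44 points). Whole-gene values mix a start of low methylation with a methylated interior, and move with how the calls of each arm fall on the CpGs. Matched CpG by CpG, Gnai1 was at 5.88, Adcy2 at 2.10, Adcy6 at -1.10 and Adcy9 at -0.913 points, each with its sign turned. The pooled levels were 31.6% of 3633 calls and 36.9% of 3512 calls, a difference of -5.36 points (95% interval -7.57 to -3.14). Adra2a, Adcy3 and Adcy5 were lower by 10 points or more and none was higher by as much, against 4.49% and 1.64% of all genes. Matched CpG by CpG, Adcy3 stayed past 10 points at -13.5, while Adra2a was at -6.70 and Adcy5 at -5.18; with the same weight for every CpG the 3 were at -10.5, -5.30 and -6.12. The interval lay below 0 in those 3 and in Adcy1, and above 0 in none, against 7.46% and 1.96%. Among 9 members with 20 calls in every pool, all AG-881 pools lay below all DMSO pools in Adra2a alone, against 1.5% of 7554 genes. The whole gene includes the calls of the start window, so this is no second observation. No member separated in the other direction, against 0.371%. All members except Adcy2 had a mean level of the 2 arms from 20% to 60%. Among the 2863 genes in that range 64.2% were lower, 12.6% by 10 points or more and 3.81% higher by as much. All AG-881 pools lay below all DMSO pools in 2.85% of the 1719 of them with 20 calls in every pool. Without AG-881 pool 4 the number of lower members dropped from 7 to 4 and the pooled difference was -2.94 points. The median difference of the members was -2.10 points over the whole gene and -4.28 points at the start, against -0.245 and -0.0147 points over all genes.

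Adra2a, the alpha-2A receptor gene (chromosome 19, 54045259 to 54048982, plus strand), was the member whose pools separated. Its start window held 28 shared CpGs, from positions -517 to 185 relative to the start. In AG-881 pools 1 to 4 the level was 38.9%, 32.1%, 37.7% and 25.6%, and in DMSO pools 5 to 8 it was 57.1%, 42.4%, 45.6% and 49.4%. Every AG-881 pool lay below every DMSO pool, although pool 5 rests on 21 calls. The levels of the arms were 33.5% (95% interval 27.9 to 39.4, 272 calls) and 47.04% (40.8 to 53.4, 253 calls), a difference of -13.6 points (-22.0 to -4.93). Of the 28 CpGs, 22 were lower with AG-881 and 4 higher. Both sides of the start had a lower level with AG-881, by -11.2 points upstream (-23.9 to 1.95) and -14.7 points downstream (-26.6 to -2.54). On neither side alone did the pools separate. Upstream AG-881 pool 2 and DMSO pool 8 were both at 41.7%. Downstream AG-881 pool 1 at 43.2% lay above DMSO pools 6 and 7 at 42.4% and 40.7%. Around the start lie 2 CpG clusters, each a run of shared CpGs with gaps of at most 200 bp. The one printed above in part (chr19:54045114-54045444, 24 CpGs) had 33.3% and 45.96%, and the one farther upstream (chr19:54044742-54044791, 4 CpGs) had 34% of 50 calls and 50.9% of 55. A cluster of 20 CpGs nearer the end of this short gene, centred 1983 bp after the start, was heavily methylated in both arms, with 85.6% and 80.9% and an interval of the difference from -4.97 to 13.5 points. Over the whole gene the pools stood at 45.7%, 51.8%, 53.8% and 44.4% with AG-881 and at 77.9%, 59.2%, 55.6% and 59.2% with DMSO. The difference of -12.5 points was -9.29 without DMSO pool 5 and -6.70 with matched CpGs. The pools differed in the share of calls from the heavily methylated cluster. It gave 9 of 81, 32 of 85, 24 of 93 and 46 of 124 calls in the AG-881 pools. In the DMSO pools it gave 47 of 68, 39 of 98, 45 of 135 and 47 of 130. What this mix adds to the whole-gene separation was not tested.

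Adra2c, the alpha-2C receptor gene (chromosome 5, 35278566 to 35281763, plus strand), had shared CpGs only downstream of its start. The AG-881 pools had 44.1%, 28.6%, 49.2% and 26.5%, and the DMSO pools 48.9%, 31.7%, 51.1% and 40%, so the arms overlapped widely. The level was 35.5% (29.9 to 41.5, 276 calls) with AG-881 and 43.3% (37.8 to 48.9, 321 calls) with DMSO. The difference of -7.79 points had an interval from -15.8 to 0.309. Leaving out AG-881 pool 4 gave -2.50 points, and leaving out pool 3 gave -11.5. Of 35 CpGs, 22 were lower and 13 higher. Over the whole gene the difference was -1.76 points (-7.70 to 4.20). The remaining receptor of the class, Adra2b, had 16.4% of 250 calls and 20% of 180 calls at its start, with an interval of the difference from -11.5 to 4.02 points and overlapping pools (8.33% to 31.9% against 16.3% to 22.2%).

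Gnai1, which encodes an inhibitory G protein alpha subunit (chromosome 5, 18265135 to 18360413, minus strand), went the other way at its start. Its 30 shared CpGs form 1 cluster (chr5:18360031-18360315) inside the gene. The AG-881 pools had 14.3%, 13.6%, 3.85% and 5%, and the DMSO pools 0%, 11.1%, 0.833% and 0%, where the 11.1% of DMSO pool 6 stands for 27 calls and overlaps the AG-881 range. With AG-881 26 of 307 calls were methylated (8.47%, 5.61 to 12.2) and with DMSO 4 of 265 (1.51%, 0.413 to 3.82), a difference of 6.96 points (3.28 to 10.8). The methylated calls were held by few cells. Of 29 AG-881 cells with at least 4 calls 22 had no methylated call, and 2 cells, from pools 1 and 2, each at 90.0%, held 18 of the 26 methylated calls. Of 21 DMSO cells 19 had none. Along the window 13 CpGs were higher with AG-881, none was lower, and 17 were unmethylated in both arms, among them all 10 within 200 bp of the start; from 200 to 299 bp the levels were 18.6% of 97 calls and 4.598% of 87. A cluster of 7 CpGs deep in the gene (chr5:18298390-18298565) was at 92.2% and 88.6%, and over the whole gene the difference was -2.44 points (-8.87 to 4.00), or 5.88 points with matched CpGs.

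**Figure D3:**
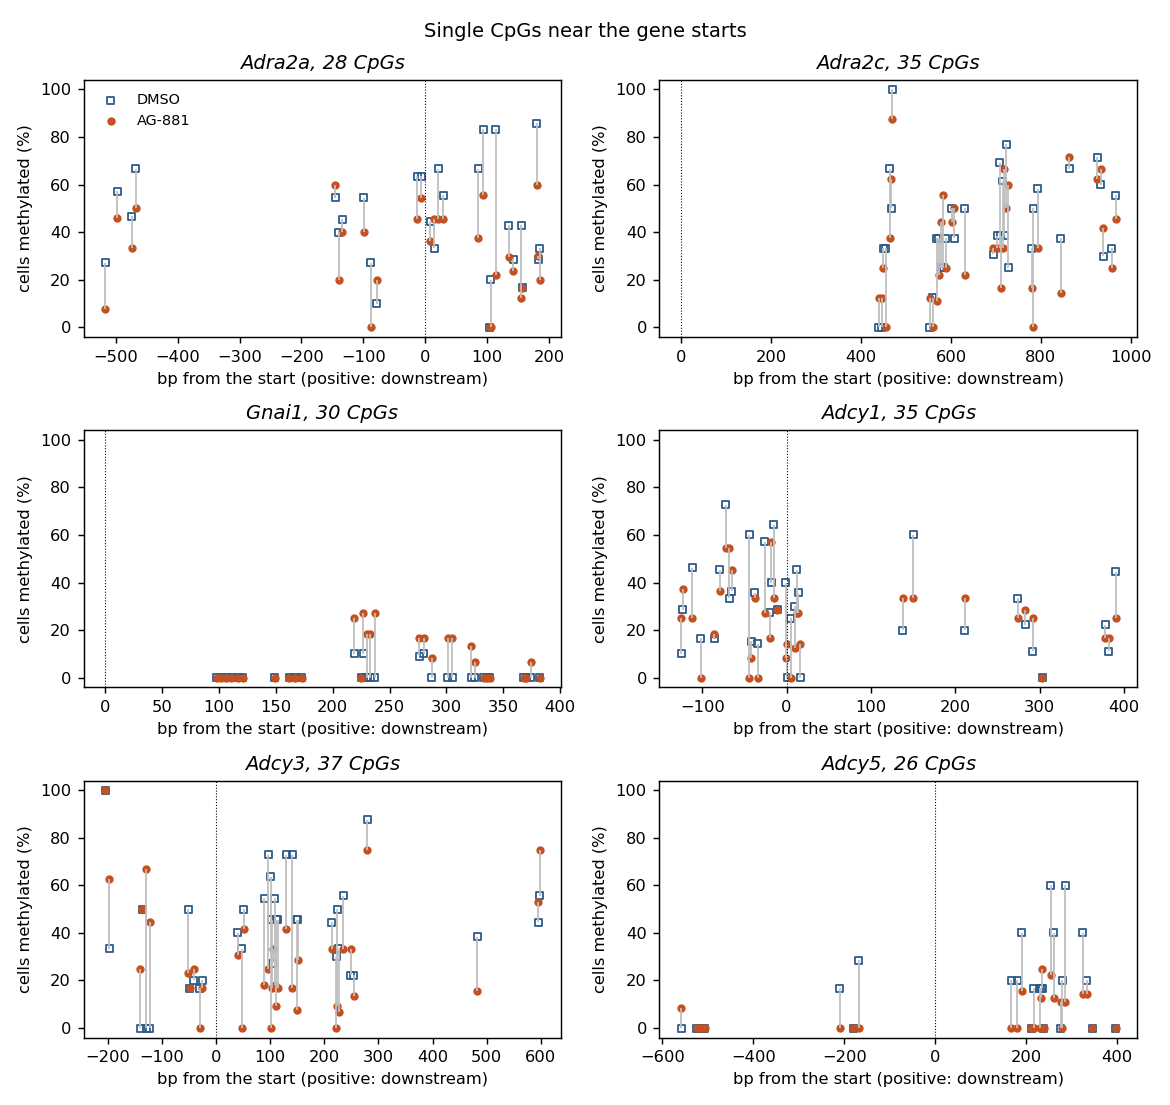
Percentage of cells methylated at each shared CpG by its distance from the start, for 6 members; squares are DMSO, filled circles AG-881, and grey lines join the 2 values of a CpG. In Adcy3 21 of the 23 CpGs from 40 to 279 bp downstream are lower with AG-881 while 4 of the 5 CpGs at -198 to -123 bp are higher. Both Adcy3 stretches were chosen after their values were seen. In Gnai1 no CpG is lower.

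Among the cyclases, Adcy1, Adcy3 and Adcy8 encode the forms known to respond to calcium and calmodulin. Adcy3 (chromosome 12, 4133116 to 4213525, plus strand, RefSeq start used 4133397) had the largest difference of any member. RefSeq also lists a start at 4134153, inside the same window. The AG-881 pools had 30.8%, 43.8%, 17.9% and 19.2%, and the DMSO pools 52.6%, 44.6%, 33.8% and 45.6%; AG-881 pool 2 and DMSO pool 7 overlap. The arm levels were 28.7% (24.6 to 33.2, 442 calls) and 44.1% (38.6 to 49.8, 315 calls), a difference of -15.4 points (-22.4 to -8.26), and 25 of 37 CpGs were lower and 9 higher.

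The difference in Adcy3 was not even along the window, and the stretches described next were chosen after their values were seen. From 40 to 279 bp downstream (chr12:4133437-4133676), 21 of 23 CpGs were lower, and the level was 22.6% of 283 calls with AG-881 and 49.1% of 218 with DMSO, a difference of -26.5 points (-34.8 to -17.8). Here the AG-881 pools had 20%, 40.5%, 9.80% and 14.1% and the DMSO pools 56.5%, 44.7%, 41.3% and 50%. The arms did not overlap in this stretch, but its bounds were set on these same values. Over the full start window they overlapped. In front of the start used, though still inside the annotated gene, the order of the arms was reversed at a short stretch. At 5 CpGs at -198 to -123 bp the level was 50% of 42 calls from 9 AG-881 cells and 15.6% of 32 calls from 7 DMSO cells. The difference was 34.4 points (11.04 to 53.3). Of these CpGs 4 lie within 28 bases (chr12:4133252-4133279, plus strand), with the shared CpGs in capitals. The CG left in lower case near the end of the stretch was not a shared CpG.
Adcy3 upstream stretch: caattCGgCGtttccaCGcagtCGtcgc
DMSO pools 5 and 6 had no call in the 5 CpGs, so this stretch could be compared only with pools 7 and 8, at 20% and 11.8%. The AG-881 pools had 50%, 70%, 20% and 44.4%, where pool 3, on 5 calls, equals DMSO pool 7. Over all 11 upstream CpGs the levels were 35.4% of 113 calls and 27.3% of 66, with an interval of the difference from -7.03 to 22.1 points.

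Adcy1 (chromosome 11, 7063433 to 7178506, plus strand) had 11.8%, 30.95%, 25.6% and 26.4% in the AG-881 pools and 26.4%, 16.9%, 40.5% and 40.2% in the DMSO pools. The ranges overlap, and the lowest pool belongs to AG-881 and the 2 highest to DMSO. The arm levels were 23.8% (19.4 to 28.7, 336 calls) and 32.01% (27.2 to 37.2, 353 calls), a difference of -8.20 points (-15.0 to -1.30); it was -4.29 points without DMSO pool 7 and -12.9 without DMSO pool 6. The part before the start, all of it in the sequence printed above, had 25.8% and 36.2%, a difference of -10.4 points (-19.3 to -1.36), and the part after it had 20.3% and 25.2%, with an interval from -15.5 to 5.97. Adcy8 (chromosome 15, 64699035 to 64922296) had 17.4% of 132 calls and 18.2% of 143, a difference of -0.758 points (-10.2 to 8.87). Its pools ran from 10.3% to 22.6% with AG-881 and from 8.33% to 37.1% with DMSO, and without DMSO pool 7 the difference was 5.39 points.

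Adcy5 and Adcy6 encode the pair of cyclases known for their inhibition by inhibitory G proteins and by calcium. Adcy5 (chromosome 16, 35154494 to 35305743, plus strand) had 4.26%, 10.0%, 4.35% and 1.59% in the AG-881 pools and 20.8%, 3.85%, 25% and 6.38% in the DMSO pools. The 2 high DMSO pools lie above every AG-881 pool and the other 2 lie among them. The arm levels were 5.51% (2.97 to 9.24, 236 calls) and 14.6% (9.46 to 21.04, 158 calls), a difference of -9.05 points (-16.0 to -2.73), which was -5.92 without DMSO pool 5. It came mostly from 1 cluster of 18 CpGs (chr16:35155032-35155261), with 7.64% and 20.2%, a difference of -12.6 points (-22.5 to -3.44). Over the whole gene the AG-881 pools had 22.95%, 21.5%, 15.4% and 18.8% and the DMSO pools 30.8%, 32.6%, 42.9% and 22.95%, with AG-881 pool 1 and DMSO pool 8 at the same value; the difference of -11.7 points was -5.18 with matched CpGs. Adcy6 (chromosome 15, 98589978 to 98610287) was almost unmethylated near its start. It had 0 of 256 calls methylated with AG-881, with an upper limit of the interval of 1.43%, and 1 of 297 calls with DMSO.

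Adcy2, a form known to be stimulated by G protein beta-gamma subunits (chromosome 13, 68620043 to 68999600, minus strand), had 8.52% of 411 calls and 7.45% of 322, with an interval of the difference from -3.19 to 5.14 points. Its pools spread from 0% to 20.9% with AG-881 and from 3.39% to 17.7% with DMSO. Its window overlaps the long non-coding RNA Gm35161 (68999545 to 69031555), whose strand was not looked up. The shared CpGs of the window lie outside that RNA, at 68998754 to 68999541, the nearest of them close to its boundary. Whether they also belong to a start of Gm35161 cannot be told. The 2 clusters in the window went different ways. The one at the start (chr13:68999201-68999541) had 8.76% and 4.96%. The one centred 680 bp inside the gene had 7.5% of 80 calls and 18.3% of 60, and both intervals of the difference included 0. Adcy9 (chromosome 16, 4284886 to 4437236, minus strand), a form known for its weak response to forskolin, had 3.06% of 98 calls and 2.78% of 108. Its RefSeq start at 4420498 lies well inside the annotated gene, and the boundary at 4437236 was not used as a start here.

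Away from the starts the members were mostly methylated. The interior was taken as the gene with its flanks, without the CpGs within 1 kb of the start used or of the other end. In Adcy5 this takes in the CpGs at -1353 and -1347 bp, which lie before the annotated gene. They were at 100% with AG-881 and at 55.6% and 77.8% with DMSO. In the interior the DMSO level ran from 43.8% in Adra2c to 93.5% in Adcy6, on 29 to 194 calls. The interval of the difference between the arms included 0 in the interior of each of the 10 members, from -16.8 to 30.4 points in Adcy3, for example. With at least 40 calls and 10 cells in each arm the members held 13 CpG clusters. Of these 9 were lower with AG-881 and 4 higher, 5 were lower by 10 points or more and none was higher by as much, against 5.59% and 2.24% of 15190 clusters over all genes. The 5 were 2 of Adra2a and 1 each of Adcy2, Adcy3 and Adcy5, and all lie within 1 kb of a start. So were all other clusters of the members centred, except 1 of Adra2a at 1983 bp and 1 of Gnai1 at 61936 bp. Among the 5, the interval of the difference included 0 in the Adcy2 cluster (-23.8 to 1.14) and in the upstream Adra2a cluster (-35.7 to 3.33).

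Single cells differed widely at the partly methylated starts. With at least 4 calls, 34 AG-881 and 25 DMSO cells could be scored at Adra2a; the median cell had 25% and 46.2%, cells without a methylated call were 10 of 34 and 4 of 25, and cells at 75% or more were 7 in each arm. At Adcy3 the median was 25.1% over 34 cells and 38.2% over 30, and cells without a methylated call were 4 and 2. At Adra2c the medians were 29.7% and 42.9% over 28 and 26 cells. Most cells thus lay between the extremes in both arms at these 3 genes. At Adcy5 and Gnai1 the median cell had no methylated call in either arm, and the arms differed in the minority: 5 of 27 AG-881 and 7 of 17 DMSO cells had one at Adcy5, and 7 of 29 and 2 of 21 at Gnai1. In Adcy2, whose arms were close, 2 AG-881 cells held 20 of 35 methylated calls, the pooled level there also resting on few cells.

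**Figure D4:**
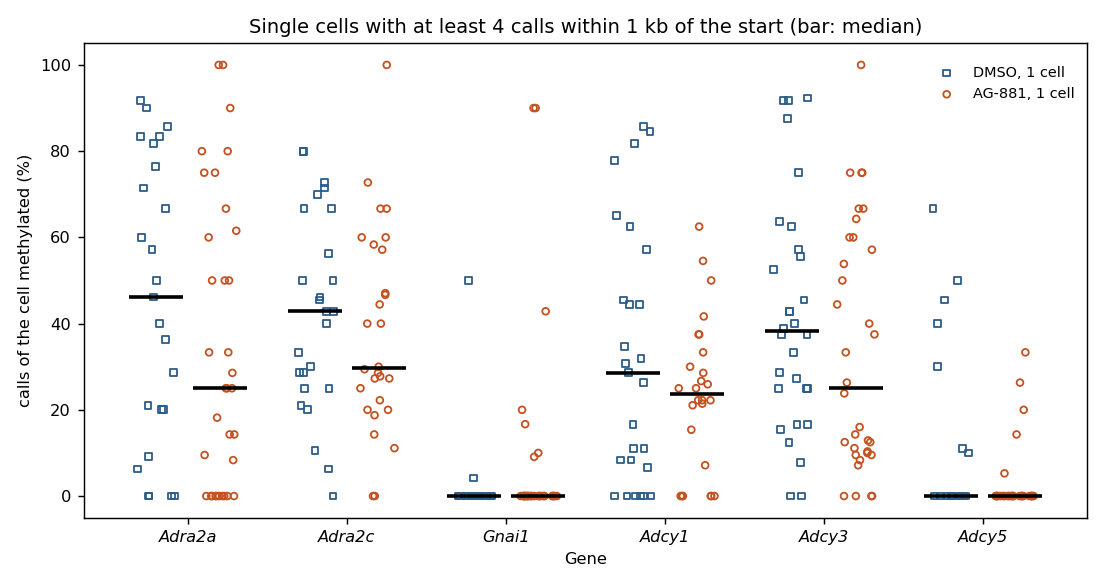
Percentage of a cell's calls methylated within 1 kb of the start, for cells with at least 4 calls at 6 members; squares are DMSO cells, circles AG-881 cells and bars the median cell. Cells spread over the whole range at Adra2a and Adcy3, and at Gnai1 2 AG-881 cells at 90.0% stand apart from the rest.

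Most of the measured starts of other pathway genes had little methylation, as most starts of all genes did. Of 65 further receptors, G protein subunits, kinase A subunits, phosphodiesterases and regulators, 36 were measured, and 24 of them were under 5% in both arms. Among all 9360 measured starts 7152 had a mean level of the 2 arms under 5%. Of the 36 pathway genes 23 were lower with AG-881, 8 higher and 5 equal, beside 50.7% of all starts that were lower. None of the 36 passed 10 points in either direction, and their median difference was -0.543 points. The interval of the difference lay below 0 in 2 of 36 genes and above 0 in none, and the pools separated in 1 of 27 with enough calls. These counts are to be read beside the 5.84% and 1.32% of all starts, and the first is near that background. Pde3a, a phosphodiesterase that cyclic GMP inhibits, had 1.10%, 3.90%, 1.15% and 1.61% in the AG-881 pools and 9.47%, 9.62%, 5.26% and 3.94% in the DMSO pools. All its AG-881 pools lay below all DMSO pools, by a narrow margin between pools 2 and 8, and the arm levels were 1.85% of 379 calls and 6.50% of 369, a difference of -4.66 points (-7.87 to -1.67). Gnaz, another inhibitory G protein subunit, had 3.88% of 387 calls and 9.39% of 277, a difference of -5.51 points (-9.91 to -1.52). Its pools overlapped (0% to 11.2% against 0% to 37.04%), and DMSO pool 6 at 37.04% rests on 27 calls. Together with Adra2b these had the 3 largest decreases among genes with at least 100 calls per arm. The 3 largest increases were in Adra1d, an alpha-1 receptor gene (59.6% and 56.5%), Prkar2b, a regulatory subunit of kinase A (1.05% and 0% of 167 calls), and Rapgef3 (15.3% and 14.5%), and each interval included 0. The cyclases outside the list, Adcy4, Adcy7 and Adcy10, had no calls at shared CpGs near their starts.

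The genes closest to 3 members in their 8 pool levels were found among 4146 starts with at least 20 calls in every pool and 200 in each arm, as a description. Closest to Adra2a were Pitx1 (37.4% and 45.4%), Gmip (38.2% and 43.02%) and Rtn4rl1 (31.8% and 48.1%), with root-mean-square differences of 5.38, 6.59 and 6.60 points. Closest to Adcy3 were Mapk8ip1, Lmx1a and Matn3, at 8.71 to 9.71 points, and their own differences between arms were smaller than that of Adcy3 (31.96% and 39.4%, 26.3% and 32.8%, 30.8% and 38.2%). Closest to Gnai1 were Ezr, Foxc1 and Pdia6, at 3.44 to 4.64 points, with 5.28% and 3.73%, 7.84% and 6.01%, and 3.19% and 2.44%.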

How the data were processed

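Methylation was measured by single-cell reduced representation bisulfite sequencing after MspI digestion, per the labels' protocols. The deposited values are a methylated fraction per position and cell (0, 0.5 or 1, missing where the cell had no call), on mm10, per the submitters' processing notes. The table held 1416034 positions and 141 cells. It gives no read counts, so the read depth is unknown; which aligner, caller and read minimum were used is not given in the sources used here. Incomplete bisulfite conversion would raise every level.

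Adjacent positions were merged as the 2 strands of 1 CpG (1322845 CpGs), and a fraction above 50% counted as methylated; ties, 0.649% of calls, were left out. CpGs with a call in 5 or more cells per arm (shared CpGs) were kept, 396201 in all and 414 of 1298 at the members. Of the CpGs in RefSeq promoters, 98.2% fell on a CG. Calls were pooled per arm and pool. A window counted as measured where both arms had 50 calls and 10 cells or more. Intervals of differences combine the Clopper-Pearson intervals (95%) of both arms. Named were all members; other pathway genes with separate pools or among the 3 largest decreases or increases with 100 calls per arm; each member's extreme clusters; and the 3 genes nearest to Adra2a, Adcy3 and Gnai1 with 200 calls per arm. Members and lists were chosen with earlier results of these data known. No test was run, because each arm was treated as 1 culture. Alternatives changed the cells required, ties, strand merging, CpG weights, flanks, cluster gaps and pools. The transcriptomes were not analysed here. Python 3.11.15, numpy 2.4.6, scipy 1.17.1, pandas 2.3.3 and matplotlib 3.10.9 were used.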

Additional observations from a re-analysis of the deposited data

Results flagged for a closer look

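Among 37 sets of 4 pools with at least 20 calls each, 4 held a pool far from the other 3 of its arm by Dixon's criterion, which chance meets in about 1 of 20 sets. Pools are library batches within an arm that was taken as 1 culture, and no explanation was weighed. At the start of Gnai1 DMSO pool 6 had 11.1% of 27 calls, while the other DMSO pools had 0% to 0.833%. Over the whole of Adra2a DMSO pool 5 had 77.9% of 68 calls, against 55.6% to 59.2%. Of these 68 calls 47 came from the methylated interior, against 39 of 98, 45 of 135 and 47 of 130 in DMSO pools 6 to 8. Over the whole of Adra2c DMSO pool 6 had 30.6% of 62 calls, against 47.7% to 49.02%. At the start of Adcy6 DMSO pool 5 had 0.909% of 110 calls, a single methylated call, against 0% in the other DMSO pools.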

How the results depend on the processing

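The pooled difference of the members stayed below 0 under each of 10 other settings and with each of the 8 pools left out. With at least 10 cells of each arm per CpG, which left 76 CpGs in the whole genes and 66 near the starts, it was -10.0 and -10.2 points. There Adcy3 stood at 15.3% and 53.4% on 12 CpGs, Adra2c at 54.2% and 45% on 2, and Adcy5 and Adcy9 gave no value. Over whole genes the pooled difference was -2.37 points with the same weight for every CpG and -3.08 points with matched CpGs. With 1 pool left out it ran from -6.63 to -2.94 points over whole genes and from -6.76 to -3.05 points near the starts, and the number of lower members over whole genes ran from 4 to 9; the smallest values were those without AG-881 pool 4. Near the starts Adra2a ran from -16.4 to -11.8 points over the other settings, Adcy3 from -38.1 to -12.9 and Gnai1 from 4.82 to 13.2. With 1 pool left out their ranges were -15.5 to -10.4, -21.1 to -11.8 and 5.46 to 8.64 points. Adcy1 was -1.24 points when every call of either arm was used. With 1 pool left out the sign changed near the start in Adcy2 (-3.74 to 5.002), Adcy8 (-3.58 to 5.39) and Adcy9 (-1.53 to 2.78), and over whole genes in Adcy2, Adcy8, Adcy9, Adra2c and Gnai1. Over whole genes Adra2a was -5.30 with the same weight for every CpG, and Gnai1 was 5.64 with it and -9.63 without DMSO pool 7. The cause of these shifts was not tested. Of all starts 8.84% were lower and 2.67% higher by at least 5 points. With cluster gaps of at most 100 bp the members again held 13 clusters, and 6 were lower by 10 points or more. No paired analysis was possible because the columns carry no replicate number and no test was run.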
